A study of Mus musculus with 8 samples.

Results

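The TNF receptor superfamily genes described here are 10 receptors found on T cells: Tnfrsf4, Tnfrsf9, Tnfrsf18, Tnfrsf8, Cd27, Tnfrsf14, Tnfrsf25, Tnfrsf1a, Fas and Tnfrsf1b. They are 10 of the 19938 genes measured, and each was taken from the probeset that the platform annotation pairs with its symbol alone. Every receptor had exactly 1 such probeset, so no choice between probesets was made. The study measured total RNA of cultured mouse CD4 T cells on Affymetrix arrays, with 2 arrays, named as biological replicates, in each of 4 groups: Tet2-/- Th17, wild-type Th17, Tet2-/- Th1 and wild-type Th1 cells. Tet2 encodes a dioxygenase that converts 5-methylcytosine of DNA to its oxidised forms. All mice had the C57BL/6 strain background. Naive cells were sorted from spleens and lymph nodes as CD4-positive, CD25-negative, CD62L-high and CD44-low, and all cultures received 1 µg/ml of antibody to CD3 and 1 µg/ml of antibody to CD28. Th17 cultures received 0.5 ng/ml TGF-β1 and 10 ng/ml IL-6 with antibodies to interferon-γ and to IL-4 at 5 µg/ml each. Th1 cultures received IL-12 at 10 ng/ml and IL-2 at 30 U/ml, with 5 µg/ml of antibody to IL-4. The sources used here do not say if these Th17 cultures also held IL-23 and IL-1β, how Tet2 was deleted, the age of the mice, or how many days the cells were cultured.

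Receptors of this superfamily bind trimeric ligands, most of them on the surface of other cells, and signal through the adapters of the TRAF family or through a cytoplasmic death domain. The TRAF-binding costimulatory members sustain the division and survival of T cells after antigen contact and engage the NF-κB pathway. The death domain members can lead to caspase activation and cell death, or, for DR3 and TNFR1, to NF-κB as well. Several of these receptors are scarce on naive T cells and appear after activation, and OX40, 4-1BB and GITR are also known from regulatory T cells.

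All 6 measured Th17 markers were higher in Th17 than in Th1 arrays in both genotypes. Of 7 measured Th1 markers, Ifng, Tbx21 and Il12rb2 were lower in Th17 cells in both genotypes, while Il18r1 was higher in Tet2-/- Th17 cells, with a difference of 0.88, and the other 3 were not called in either genotype. Cd4 read 10.15 to 10.44 log2 units and Cd3e 11.00 to 11.49 on the 8 arrays. The Tet2 probeset differed between genotypes by -0.13 in Th17 and -0.04 in Th1 cells. The labels do not place the deletion relative to this probeset, which is thus no check of the genotypes. The Th17 arrays differed in sex-linked transcripts: the mean of 3 Y-linked genes was 8.71 and 4.85 on the Tet2-/- Th17 arrays and 8.80 and 7.82 on the wild-type Th17 arrays, against 7.94 to 8.24 on the Th1 arrays. Xist read 8.62 and 11.3 on the Tet2-/- Th17 arrays and 5.20 and 10.1 on the wild-type Th17 arrays, against 4.83 to 5.11 on the Th1 arrays. The calls of receptors, ligands and signalling genes between cell types, and the 3 receptor differences between genotypes with the smallest p in Th17 cells, are therefore also given without Tet2-/- Th17 replicate 2 and wild-type Th17 replicate 1, which had the lowest and the highest Y-linked level. The Th17 arrays kept, 1 in each group, both read higher in Xist than the Th1 arrays. This setting therefore cannot separate cell type from Xist level. The arrays kept also differed between genotypes in Xist (8.62 in Tet2-/-, 10.1 in wild-type cells) and in Y-linked level (8.71 and 7.82). Genotype thus cannot be separated from these levels either. With all arrays, cell type and Xist level cannot be separated in either genotype, since both Th17 arrays read higher in Xist than both Th1 arrays. The margin was small for wild-type Th17 replicate 1 (5.20, against 5.11 on the higher wild-type Th1 array). Array medians lay between 6.47 and 6.53 log2 units, and all 10 receptors read above the median of the array on all 8 arrays. Since the arrays measure RNA of bulk cultures, fewer cells of a kind and less RNA per cell cannot be told apart.

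The clearest differences among the 10 receptors lay between Th17 and Th1 arrays. These arrays also differed in Xist, at 8.62 and 11.3 against 5.01 and 5.00 in Tet2-/- cells. In wild-type cells Xist read 5.20 and 10.1 on Th17 arrays, against 4.83 and 5.11 on Th1 arrays. Cell type and Xist level therefore cannot be told apart in either genotype. The part of Xist level in the receptor differences was not tested. In Tet2-/- cells 7 of the 10 receptors differed between Th17 and Th1 arrays at an adjusted p under 0.05 (limma, two-sided), against 10.4% of all genes. Shares of all genes include dim genes, while all 10 receptors read above the array medians. The receptors were also chosen with earlier results of these data known, so the shares are given for scale only. Adding a Y-linked covariate to the fit left 4 receptors called in Tet2-/- cells. The 4 receptors Tnfrsf25, Tnfrsf8, Tnfrsf14 and Tnfrsf1a were higher in Th17 cells (7.14% of all genes were), and the 3 receptors Tnfrsf9, Tnfrsf18 and Tnfrsf4 were lower (3.29%). In wild-type cells 4 of the 10 passed, against 8.47% of all genes. Tnfrsf25 and Tnfrsf1a were higher in wild-type Th17 cells (5.3% of all genes were), and Tnfrsf18 and Tnfrsf9 were lower (3.17%). At an unadjusted p under 0.05 the counts were 9 receptors in Tet2-/- cells (24.5% of all genes) and 6 in wild-type cells (24.4%). The Th17 and Th1 arrays did not overlap for 9 receptors in Tet2-/- cells (56.4% of all genes) and for 7 in wild-type cells (51.9%). The receptors that were lower in Th17 cells are costimulatory members without a death domain. Tnfrsf8 and Tnfrsf14, also without a death domain, were higher in Tet2-/- Th17 cells (0.68 and 0.58), so direction did not follow this class. The highest fold was that of Tnfrsf25, which has a death domain. Fas, also with a death domain, was not called in either genotype.

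**Figure D1:**
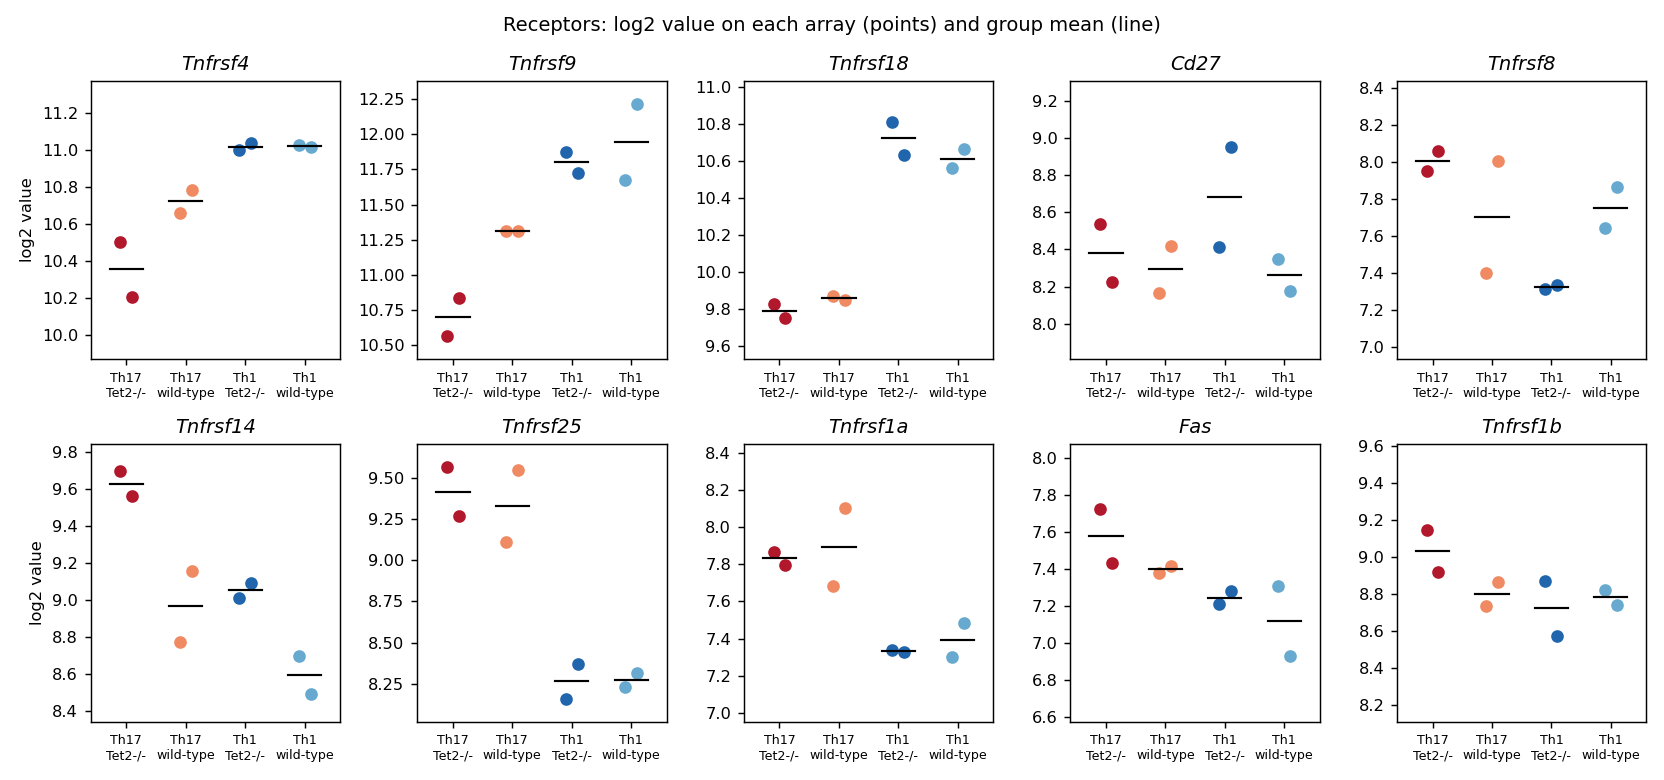
Log2 value of each of the 10 receptors (vertical axes) on each array, with points for the 2 arrays of a group and a line for the group mean; groups run Tet2-/- Th17, wild-type Th17, Tet2-/- Th1, wild-type Th1. Tnfrsf25 lies between 9.11 and 9.57 on the Th17 arrays and between 8.16 and 8.37 on the Th1 arrays, while Tnfrsf18 lies between 9.75 and 9.87 on Th17 arrays and between 10.56 and 10.81 on Th1 arrays.

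Tnfrsf18 encodes GITR, a costimulatory receptor of activated and regulatory T cells. It read 9.83 and 9.75 log2 units on the Tet2-/- Th17 arrays, against 10.81 and 10.63 on the Tet2-/- Th1 arrays. The wild-type values were 9.87 and 9.85 in Th17 cells, against 10.56 and 10.66 in Th1 cells. All 4 Th17 arrays thus lay below all 4 Th1 arrays, and the arrays of a cell type lay close together. Th17 minus Th1 came to -0.93 (SE 0.123, adjusted p = 0.000428) in Tet2-/- cells, a 1.91-fold lower level, and -0.75 (SE 0.123, adjusted p = 0.00238) in wild-type cells, 1.69-fold lower.

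Tnfrsf9 encodes 4-1BB, a costimulatory receptor induced by activation. It read 10.57 and 10.84 on the Tet2-/- Th17 arrays, against 11.88 and 11.73 on the Tet2-/- Th1 arrays. Wild-type cells gave 11.32 and 11.31 in Th17 cells, against 11.67 and 12.21 in Th1 cells. Again no Th17 array reached a Th1 array, but the 2 wild-type Th1 arrays were spread widely (SD 0.381). Between the cell types the log2 difference was -1.10 (SE 0.169, adjusted p = 0.0013, 2.14-fold lower) in Tet2-/- cells and -0.63 (SE 0.169, adjusted p = 0.0378, 1.55-fold lower) in wild-type cells.

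Tnfrsf4 encodes OX40, which supports the survival of activated T cells. It read 10.50 and 10.21 on the Tet2-/- Th17 arrays, against 11.00 and 11.04 on the Tet2-/- Th1 arrays. On wild-type arrays it read 10.66 and 10.78 in Th17 cells, against 11.02 and 11.01 in Th1 cells. The 4 Th1 arrays spanned a narrow range, and the 4 Th17 arrays all lay under it. The log2 difference was -0.66 (SE 0.132, adjusted p = 0.00692, 1.58-fold lower) in Tet2-/- cells. In wild-type cells it was -0.30 (SE 0.132, interval -0.58 to -0.01, adjusted p = 0.188), which did not pass.

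The promoter windows of these 3 receptors are shown because the 3 genes were lower together and because CpG is the dinucleotide whose methylated form Tet2 acts on. No methylation was measured in the data used here. Each window is 300 bases from RefSeq on GRCm38.p6, from 250 bases before to 50 after the annotated start, written 5′ to 3′ on the strand of the gene, with the CpG dinucleotides in capitals.
Tnfrsf18, chr4:156026072-156026371 (+): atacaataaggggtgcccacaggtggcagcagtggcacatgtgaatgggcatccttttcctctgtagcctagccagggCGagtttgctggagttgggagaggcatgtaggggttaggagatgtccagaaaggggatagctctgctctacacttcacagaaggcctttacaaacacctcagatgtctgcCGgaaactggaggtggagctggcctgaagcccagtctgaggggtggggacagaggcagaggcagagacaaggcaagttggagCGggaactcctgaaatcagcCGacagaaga
Tnfrsf9 window 1, chr4:150919905-150920204 (+): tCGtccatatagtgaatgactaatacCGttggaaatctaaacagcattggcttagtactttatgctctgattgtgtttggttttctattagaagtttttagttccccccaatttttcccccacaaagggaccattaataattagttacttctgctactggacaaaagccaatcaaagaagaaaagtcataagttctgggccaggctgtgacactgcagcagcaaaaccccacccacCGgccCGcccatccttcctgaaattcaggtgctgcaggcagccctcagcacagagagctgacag
Tnfrsf9 window 2, chr4:150927749-150928048 (+): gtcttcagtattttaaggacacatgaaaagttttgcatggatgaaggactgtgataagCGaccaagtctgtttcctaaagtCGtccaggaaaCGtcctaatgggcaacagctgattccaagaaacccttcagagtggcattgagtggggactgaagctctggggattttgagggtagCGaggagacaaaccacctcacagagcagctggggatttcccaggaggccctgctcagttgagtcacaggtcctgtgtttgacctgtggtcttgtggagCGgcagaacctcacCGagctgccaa
Tnfrsf4, chr4:156013445-156013744 (+): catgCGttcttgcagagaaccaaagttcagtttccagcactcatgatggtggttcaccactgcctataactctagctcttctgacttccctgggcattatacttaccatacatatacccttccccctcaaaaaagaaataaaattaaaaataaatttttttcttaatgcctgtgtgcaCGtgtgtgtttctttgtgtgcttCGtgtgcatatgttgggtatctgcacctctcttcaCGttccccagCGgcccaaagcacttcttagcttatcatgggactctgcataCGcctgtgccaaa
The window of Tnfrsf18 holds 4 CpG, those of Tnfrsf9 hold 4 and 6, and that of Tnfrsf4 holds 6. The median over the 32841 windows of the RefSeq table is 7, with quartiles of 3 and 20. Tnfrsf4 and Tnfrsf18 are neighbours on chromosome 4, with 0 coding genes between them in the RefSeq gene table.

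Tnfrsf8 encodes CD30, a receptor of activated T cells. It read 7.95 and 8.06 on the Tet2-/- Th17 arrays, against 7.32 and 7.34 on the Tet2-/- Th1 arrays. The wild-type values were 7.40 and 8.00 in Th17 cells, against 7.64 and 7.86 in Th1 cells. The Tet2-/- groups stood apart, while the wild-type groups overlapped fully. Th17 minus Th1 came to 0.68 (SE 0.169, adjusted p = 0.0229, 1.60-fold higher) in Tet2-/- cells and -0.05 (SE 0.169, adjusted p = 0.895) in wild-type cells.

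Cd27, whose product sustains T cells after priming by binding CD70, gave no call in any comparison. It read 8.54 and 8.23 on the Tet2-/- Th17 arrays, against 8.41 and 8.95 on the Tet2-/- Th1 arrays. Wild-type cells gave 8.17 and 8.42 in Th17 cells, against 8.35 and 8.18 in Th1 cells. Th17 and Th1 arrays overlapped in both genotypes. The intervals of the Th17 minus Th1 difference were -0.69 to 0.09 in Tet2-/- cells and -0.36 to 0.42 in wild-type cells.

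Tnfrsf14 encodes HVEM, which binds LIGHT and lymphotoxin-α and also the inhibitory receptor BTLA. It read 9.70 and 9.56 on the Tet2-/- Th17 arrays, against 9.01 and 9.09 on the Tet2-/- Th1 arrays. On wild-type arrays it read 8.77 and 9.15 in Th17 cells, against 8.70 and 8.49 in Th1 cells. Th17 arrays lay above Th1 arrays within each genotype. Between the cell types the log2 difference was 0.58 (SE 0.146, adjusted p = 0.0252, 1.49-fold higher) in Tet2-/- cells. It was 0.37 (SE 0.146, interval 0.05 to 0.69, adjusted p = 0.141) in wild-type cells, which did not pass.

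Tnfrsf25 encodes DR3, a death domain receptor that costimulates T cells when it binds TL1A. It read 9.57 and 9.27 on the Tet2-/- Th17 arrays, against 8.16 and 8.37 on the Tet2-/- Th1 arrays. The wild-type values were 9.11 and 9.55 in Th17 cells, against 8.23 and 8.31 in Th1 cells. Every Th17 array lay well above every Th1 array. The log2 difference was 1.15 (SE 0.161, interval 0.80 to 1.50, adjusted p = 0.000635, 2.22-fold higher) in Tet2-/- cells and 1.06 (SE 0.161, interval 0.71 to 1.41, adjusted p = 0.00147, 2.08-fold higher) in wild-type cells.

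RefSeq annotates 2 starts for Tnfrsf25, and both windows are shown because this gene had the largest difference of the 10. They follow the same layout, with CpG in capitals.
Tnfrsf25 window 1, chr4:152115684-152115983 (+): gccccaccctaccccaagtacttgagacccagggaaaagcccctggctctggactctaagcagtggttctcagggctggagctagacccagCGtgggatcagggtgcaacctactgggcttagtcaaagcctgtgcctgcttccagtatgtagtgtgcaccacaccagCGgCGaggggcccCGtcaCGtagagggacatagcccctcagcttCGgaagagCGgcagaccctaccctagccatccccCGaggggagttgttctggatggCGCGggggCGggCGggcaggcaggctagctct
Tnfrsf25 window 2, chr4:152116093-152116392 (+): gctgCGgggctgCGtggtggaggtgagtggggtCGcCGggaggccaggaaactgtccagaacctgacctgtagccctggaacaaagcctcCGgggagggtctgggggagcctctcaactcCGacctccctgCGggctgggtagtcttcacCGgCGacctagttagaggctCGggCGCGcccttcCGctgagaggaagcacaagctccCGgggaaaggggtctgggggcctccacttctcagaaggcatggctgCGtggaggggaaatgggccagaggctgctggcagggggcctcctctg
These windows hold 12 and 15 CpG, more than those of Tnfrsf18, Tnfrsf9 and Tnfrsf4. The counts are not ordered by direction among the other receptors: Tnfrsf14, also higher in Tet2-/- Th17 cells, holds 2, Tnfrsf1a holds 11 and Tnfrsf8 holds 15. Of the receptors that gave no call, Cd27 holds 7, Tnfrsf1b 13 and Fas 14. The values here are per gene and not per start.

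Tnfrsf1a encodes TNFR1, the death domain receptor for TNF. It read 7.87 and 7.80 on the Tet2-/- Th17 arrays, against 7.34 and 7.33 on the Tet2-/- Th1 arrays. Wild-type cells gave 7.69 and 8.10 in Th17 cells, against 7.30 and 7.48 in Th1 cells. Th17 arrays lay above Th1 arrays in both genotypes. Th17 minus Th1 came to 0.50 (SE 0.141, adjusted p = 0.0414, 1.41-fold higher) in Tet2-/- cells and 0.50 (SE 0.141, adjusted p = 0.0466, 1.42-fold higher) in wild-type cells.

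Fas encodes the death receptor through which activated T cells are removed. It read 7.72 and 7.43 on the Tet2-/- Th17 arrays, against 7.21 and 7.28 on the Tet2-/- Th1 arrays. On wild-type arrays it read 7.38 and 7.41 in Th17 cells, against 7.31 and 6.93 in Th1 cells. The groups did not overlap, yet neither difference passed. Between the cell types the log2 difference was 0.33 (SE 0.143, adjusted p = 0.177) in Tet2-/- cells and 0.28 (SE 0.143, adjusted p = 0.258) in wild-type cells.

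Tnfrsf1b encodes TNFR2, the TNF receptor without a death domain. It read 9.15 and 8.92 on the Tet2-/- Th17 arrays, against 8.87 and 8.58 on the Tet2-/- Th1 arrays. The wild-type values were 8.73 and 8.87 in Th17 cells, against 8.82 and 8.74 in Th1 cells. The wild-type groups overlapped, and the Tet2-/- groups were separated by a small gap. The log2 difference was 0.31 (SE 0.138, interval 0.01 to 0.61, adjusted p = 0.19) in Tet2-/- cells and 0.02 (SE 0.138, interval -0.28 to 0.32, adjusted p = 0.956) in wild-type cells.

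**Figure D2:**
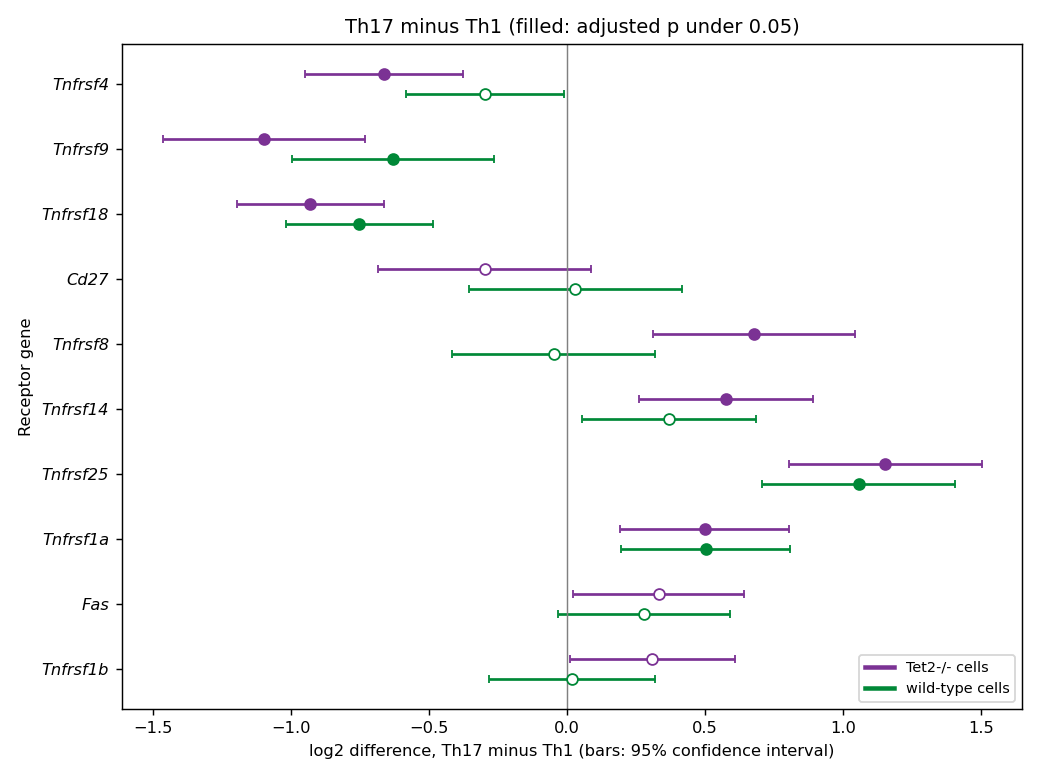
Log2 difference between Th17 and Th1 cells (horizontal axis, Th17 minus Th1) of the 10 receptors in Tet2-/- and in wild-type cells, with 95% confidence intervals from the fit and filled points for an adjusted p under 0.05. Tnfrsf25 sits at 1.15 and 1.06, and Tnfrsf18 at -0.93 and -0.75, in Tet2-/- and wild-type cells.

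The calls of Tnfrsf18 and Tnfrsf25 in both genotypes, and that of Tnfrsf9 in Tet2-/- cells, held without each of the 8 arrays in turn and without the 2 Th17 arrays of extreme Y-linked level. The last setting keeps 1 array in each Th17 group, with Xist at 8.62 in Tet2-/- and 10.1 in wild-type cells, above all Th1 arrays. It therefore cannot separate cell type from Xist level. The other calls rested on fewer arrays. In Tet2-/- cells Tnfrsf4 did not pass without Tet2-/- Th17 replicate 2 (-0.51, adjusted p = 0.09995). Tnfrsf14, Tnfrsf1a and Tnfrsf8 did not pass when any of the 4 Tet2-/- arrays was left out. In wild-type cells Tnfrsf9 did not pass without wild-type Th1 replicate 2 (-0.36, adjusted p = 0.169), without either wild-type Th17 array (adjusted p = 0.127 and 0.176) or without either Tet2-/- Th17 array (0.054 and 0.0539), and Tnfrsf1a passed only when wild-type Th17 replicate 1 was the array left out (0.71, adjusted p = 0.017); without wild-type Th17 replicate 2 it was 0.29 (adjusted p = 0.356). Without both Th17 arrays of extreme Y-linked level 3 receptors passed in Tet2-/- cells (Tnfrsf9, Tnfrsf18 and Tnfrsf25) and 3 in wild-type cells (Tnfrsf18, Tnfrsf1a and Tnfrsf25).

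Markers that could accompany these receptors also differed between the cell types. Of 8 regulatory T cell markers, Ctla4 and Gpr83 were called higher in Th17 cells in both genotypes and Lrrc32 in wild-type cells. Foxp3, their lineage factor, read 6.42 to 6.74 on all arrays, near the array medians. In Tet2-/- cells 3 of the 8 differences were positive and 5 negative (median -0.07, lowest -0.73), while in wild-type cells all 8 were positive (median 0.13). The sum given next is weighted to the brightest markers, such as Il2ra at 12.3 to 12.5. The log2 of the summed marker level was 13.1 and 13.3 on the Tet2-/- Th17 arrays and 13.3 and 13.3 on the wild-type Th17 arrays, against 12.9 and 13.0 on the Tet2-/- Th1 arrays and 12.9 and 13.0 on the wild-type Th1 arrays. Of 10 T cell activation genes, Nr4a3 was lower in Th17 cells and Cd69 higher in both genotypes. In Tet2-/- Th17 cells Tfrc was also higher and Egr2 lower, and in wild-type Th17 cells Nr4a1 and Egr1 were higher. The summed activation level was 13.8 and 13.9 on the Tet2-/- Th17 arrays and 13.9 and 14.0 on the wild-type Th17 arrays, against 13.7 and 13.8 on the Tet2-/- Th1 arrays and 13.6 and 13.7 on the wild-type Th1 arrays. The naive T cell genes Lef1 and S1pr1 were higher and Ccr7 lower in Th17 cells in both genotypes, and Il7r was higher in Tet2-/- Th17 cells, of 5 measured. Eomes, of 4 CD8 T cell markers, was lower in both, and of 8 stromal and endothelial markers Lum and Pecam1 were higher and Sparc lower in both, with Dcn higher in Tet2-/- Th17 cells. No marker of B, NK, myeloid or erythroid cells was called, and 4 of 5, 4 of 4, 6 of 7 and 1 of 1 of those measured read under the array median on all 8 arrays. The part of these markers in the receptor differences was not tested.

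Loss of Tet2 gave no called receptor in either cell type. In Th17 cells 0 of the 10 passed, against 0% of all genes, and 3 had an unadjusted p under 0.05 (4.25% of all genes): Tnfrsf14, Tnfrsf9 and Tnfrsf4. In Th1 cells 0 of the 10 passed, against 0.00502% of all genes (the 1 gene Ifng), and 3 had an unadjusted p under 0.05 (5.74% of all genes): Tnfrsf14, Tnfrsf8 and Cd27. Tet2-/- and wild-type arrays did not overlap for 6 receptors in Th17 cells (33.2% of all genes) and for 3 in Th1 cells (32.7%). All these tests came from limma, and no other tool was run.

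Tnfrsf14 had the smallest p of the 10 in both cell types. In Th17 cells the 2 Tet2-/- arrays (9.70 and 9.56) lay above the 2 wild-type arrays (8.77 and 9.15), with a log2 difference of 0.66 (SE 0.146, unadjusted p = 0.000607, adjusted p = 0.637). In Th1 cells the Tet2-/- arrays (9.01 and 9.09) lay above the wild-type arrays (8.70 and 8.49), with a difference of 0.46 (SE 0.146, unadjusted p = 0.0082, adjusted p = 0.824). The mean of the 2 genotype effects was 0.56 (SE 0.103, interval 0.34 to 0.78, unadjusted p = 0.000132), the 10th smallest p of 19938 genes, with an adjusted p of 0.264 that did not pass. Over the 21 alternatives of this mean effect the adjusted p ran from 0.177 to 1.00 and the value from 0.47 to 0.66. For the mean effect 0 receptors were called, against 0% of all genes, and 2 (Tnfrsf14 and Tnfrsf9) had an unadjusted p under 0.05, against 5.32% of all genes.

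The promoter window of Tnfrsf14 is shown for its low CpG count beside that genotype difference, in the same layout.
Tnfrsf14, chr4:154928028-154928327 (-): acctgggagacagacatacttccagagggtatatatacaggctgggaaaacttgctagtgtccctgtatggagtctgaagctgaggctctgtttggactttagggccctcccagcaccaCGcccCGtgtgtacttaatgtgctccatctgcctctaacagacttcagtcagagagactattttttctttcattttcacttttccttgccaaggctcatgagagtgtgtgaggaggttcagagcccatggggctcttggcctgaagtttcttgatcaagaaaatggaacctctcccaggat
It holds 2 CpG, and 14.1% of all windows hold fewer. The genotype difference did not pass, and a link between it and the CpG count was not tested.

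The other genotype differences were smaller or of mixed sign. Tnfrsf9 read 10.57 and 10.84 on the Tet2-/- Th17 arrays, against 11.32 and 11.31 on the wild-type Th17 arrays, a difference of -0.61 (SE 0.169, unadjusted p = 0.0034, adjusted p = 0.742). In Th1 cells its difference was -0.14 (interval -0.51 to 0.22), and the groups overlapped. Tnfrsf4 differed by -0.37 in Th17 cells (SE 0.132, unadjusted p = 0.0162, adjusted p = 0.999; -0.52 to -0.22 when 1 array was left out) and by 0.00 in Th1 cells (interval -0.29 to 0.28). In Th1 cells Tnfrsf8 differed by -0.43 (SE 0.169, unadjusted p = 0.0264, adjusted p = 0.827) and Cd27 by 0.42 (SE 0.178, unadjusted p = 0.0353, adjusted p = 0.841). The Cd27 value ran from 0.15 to 0.69 when 1 array was left out. For Tnfrsf25, the interval of the genotype difference was -0.26 to 0.44 in Th17 cells and -0.36 to 0.34 in Th1 cells. For Tnfrsf18 it was -0.34 to 0.20 in Th17 cells and -0.16 to 0.38 in Th1 cells. Without both Th17 arrays of extreme Y-linked level, which leaves 1 array in each Th17 group, the Th17 difference was 0.54 for Tnfrsf14, -0.74 for Tnfrsf9 and -0.28 for Tnfrsf4. The Tet2-/- and wild-type arrays kept still differed in Xist (8.62 and 10.1) and in Y-linked level (8.71 and 7.82). Genotype therefore cannot be separated from these levels in this setting.

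No marker was called between genotypes in Th17 cells, but several lists had most members of 1 sign. Of 10 T cell activation genes 9 were negative in Tet2-/- minus wild-type (median -0.12, Nr4a3 -0.34), of 8 regulatory T cell markers 7 were negative (median -0.10, Gpr83 -0.95), and of 6 Th17 markers 5 were negative (median -0.25). All 8 stromal and endothelial markers were positive (median 0.17, Lum 1.02). All 7 myeloid markers (median 0.12) and 4 of 5 naive T cell genes were positive too. Over all genes the median was 0.02, with 11287 of 19938 positive. In Th1 cells most members were positive in the activation (9 of 10, median 0.15), regulatory (6 of 8), Th17 (6 of 6), stromal (6 of 8) and myeloid (5 of 7) lists. Most were negative in the naive (4 of 5), B cell (5 of 5), NK cell (4 of 4), Th1 (5 of 7) and CD8 (3 of 4) lists. Over all genes the Th1 median was 0.01, with 10402 of 19938 positive. Gpr83 and Lum each had an adjusted p of 0.0689 in Th17 cells, and the part of these markers in the receptor differences was not tested.

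**Figure D3:**
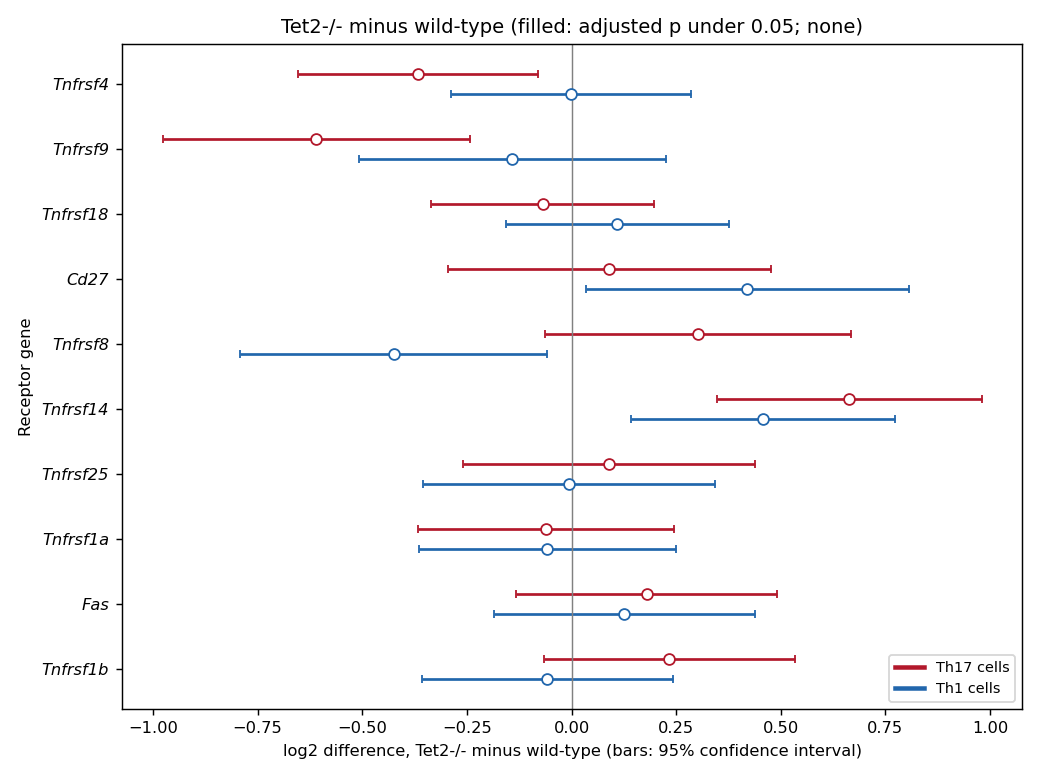
Log2 difference between Tet2-/- and wild-type cells (horizontal axis, Tet2-/- minus wild-type) of the 10 receptors in Th17 and in Th1 cells, with 95% confidence intervals from the fit. No point passed an adjusted p of 0.05, and Tnfrsf14 sits at 0.66 and 0.46.

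Whether the genotype effect differed between the cell types was tested directly, as the effect in Th17 cells minus that in Th1 cells. No receptor was called (0 of 10, against 0% of all genes), and 1 had an unadjusted p under 0.05 (4.55% of all genes). That was Tnfrsf8, at 0.73 (SE 0.239, interval 0.21 to 1.25, unadjusted p = 0.00976, adjusted p = 0.999), with effects of 0.30 in Th17 cells and -0.43 in Th1 cells. When 1 array was left out the 0.73 ran from 0.43 to 1.03 and the Th17 effect from 0.0018 to 0.60, and without both extreme arrays they were 0.38 and -0.0498. For Tnfrsf9 the difference was -0.47 (interval -0.99 to 0.05), for Tnfrsf4 -0.36 (interval -0.77 to 0.04) and for Tnfrsf14 0.21 (interval -0.24 to 0.65). With 1 array left out these ran from -0.74 to -0.20, from -0.51 to -0.22 and from 0.0157 to 0.40. The same quantity is the Th17 minus Th1 difference in Tet2-/- cells minus that in wild-type cells. It is therefore not shown that Tnfrsf4, Tnfrsf8 and Tnfrsf14, which were called between the cell types in Tet2-/- cells alone, differ between genotypes in that respect.

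Of 13 measured ligands and partners of the 10 receptors, 1 was higher and 4 were lower in Th17 than in Th1 cells in the Tet2-/- genotype, where 7.14% of all genes were higher and 3.29% lower. In wild-type cells 1 was higher (5.3% of all genes) and 2 were lower (3.17%). Ltb, the membrane-anchoring chain of lymphotoxin, was higher in Th17 cells by 1.03 (SE 0.134, adjusted p = 0.000402) in Tet2-/- and 1.27 (SE 0.134, adjusted p = 9.05e-05) in wild-type cells. Fasl, the ligand of Fas, read 6.13 and 6.23 on Tet2-/- Th17 arrays, against 7.87 and 7.76 on Tet2-/- Th1 arrays, and 6.46 and 6.43 on wild-type Th17 arrays, against 8.13 and 8.12 on wild-type Th1 arrays. Its Th17 values lay under the array medians, and its differences were -1.64 and -1.68 in Tet2-/- and wild-type cells. Tnfsf4, the ligand of OX40, was lower in Th17 cells, with log2 differences of -0.78 (adjusted p = 0.0281) in Tet2-/- and -0.79 (adjusted p = 0.0302) in wild-type cells. In Tet2-/- Th17 cells Lta, which encodes lymphotoxin-α, was lower with a difference of -1.02 (adjusted p = 0.00116), and Tnfsf14, which encodes LIGHT, with -0.53 (adjusted p = 0.0264). In wild-type cells these differed by -0.40 (adjusted p = 0.133) and -0.46 (adjusted p = 0.0533). The median difference of the 13 was -0.25 in Tet2-/- and -0.14 in wild-type cells, beside -0.01 and -0.01 over all genes. Without both extreme Th17 arrays Ltb, Fasl and Lta passed in Tet2-/- cells and Ltb and Fasl in wild-type cells, while Tnfsf4 did not (adjusted p = 0.0739 and 0.09995 in Tet2-/- and wild-type cells). Tnfsf14 did not pass in Tet2-/- cells either (adjusted p = 0.148). Cd160, Tnfsf18 and Cd70 read under the median of the array on all 8 arrays.

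**Figure D4:**
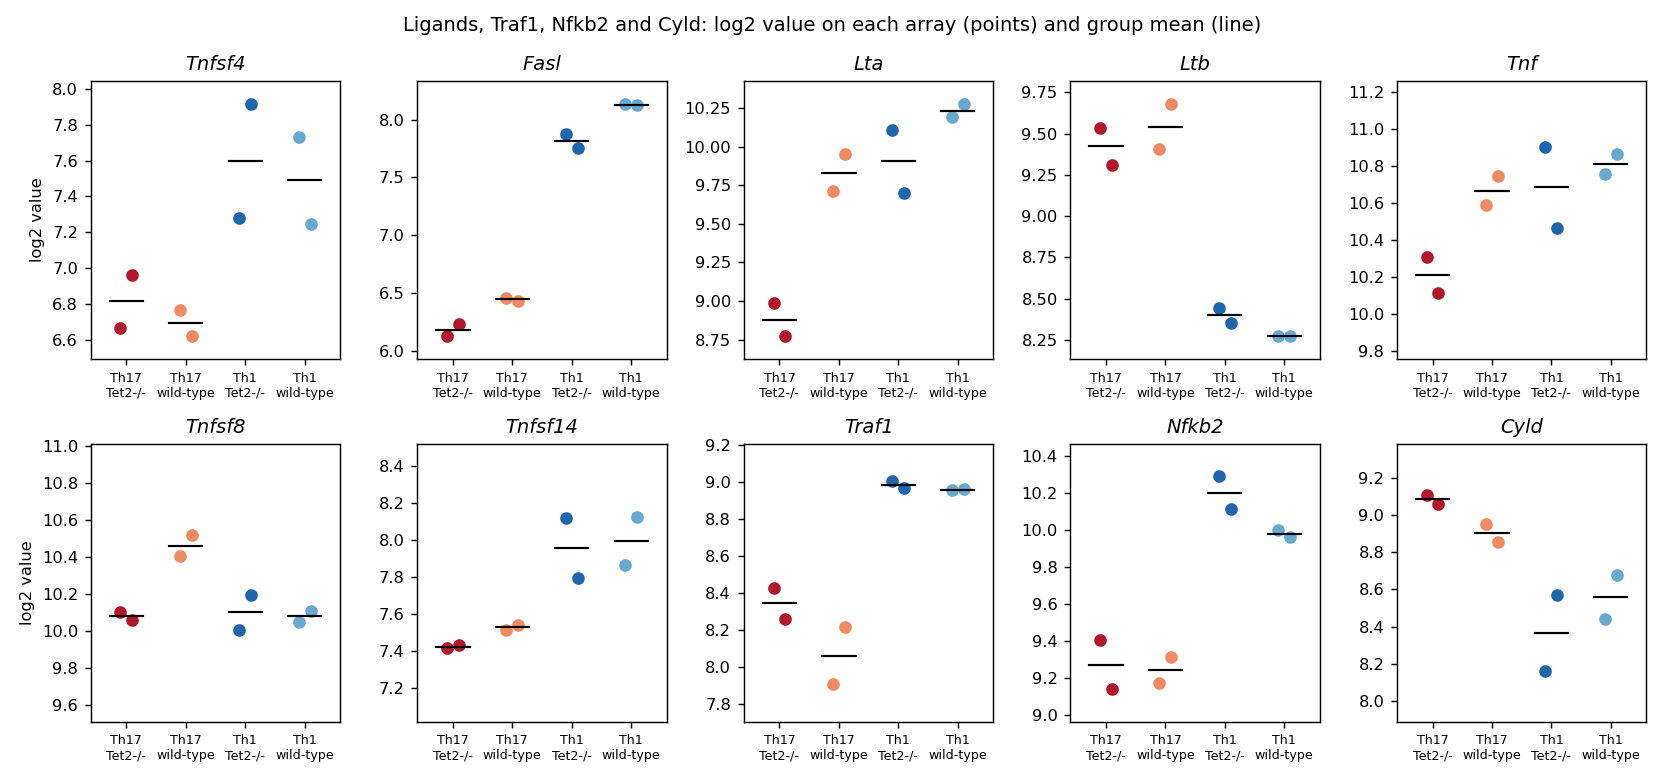
Log2 value on each array (vertical axes) of 7 ligands and of Traf1, Nfkb2 and Cyld, chosen after their values were seen, with points for arrays and lines for group means in the order Tet2-/- Th17, wild-type Th17, Tet2-/- Th1, wild-type Th1. Fasl lies between 6.13 and 6.46 on the Th17 arrays and between 7.76 and 8.13 on the Th1 arrays.

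No ligand was called between genotypes in either cell type. Lta had the smallest p of the 13 in Th17 cells. It read 8.98 and 8.77 on the Tet2-/- Th17 arrays, against 9.71 and 9.95 on the wild-type Th17 arrays, a difference of -0.95 (SE 0.155, adjusted p = 0.178), which was -0.96 without both extreme arrays. Tnfsf8, the ligand of CD30, differed by -0.38, Tnf by -0.45 and Fasl by -0.27 in Th17 cells, with adjusted p of 0.956, 0.960 and 0.999. In Th1 cells Fasl differed by -0.31 (adjusted p = 0.824) and Lta by -0.33 (adjusted p = 0.853).

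Among 18 further receptors of the superfamily and the adapter Edaradd, 3 were higher in Th17 than in Th1 cells in the Tet2-/- genotype (7.14% of all genes) and 1 in wild-type cells (5.3%, a share like that of the list), and none was lower (3.29% and 3.17%). Tnfrsf26, a mouse receptor encoded beside Tnfrsf22 and Tnfrsf23, was higher by 1.29 (SE 0.121, adjusted p = 3.3e-05) in Tet2-/- and 1.15 (SE 0.121, adjusted p = 8.76e-05) in wild-type cells. Tnfrsf23 and Tnfrsf22, decoy receptors for TRAIL in mice, were higher by 0.63 (adjusted p = 0.0428) and 0.53 (adjusted p = 0.0499) in Tet2-/- cells. In wild-type cells they differed by 0.45 (adjusted p = 0.143) and 0.36 (adjusted p = 0.173). Tnfrsf22 did not pass in Tet2-/- cells without both extreme Th17 arrays (adjusted p = 0.121), while Tnfrsf26 and Tnfrsf23 did. Of the 19 genes, 6 read under the median of the array on all 8 arrays.

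Downstream of the receptors, the adapter Traf1, which is induced by NF-κB and binds TRAF2, was lower in Th17 cells, with differences of -0.64 (SE 0.131, adjusted p = 0.00826) in Tet2-/- and -0.90 (SE 0.131, adjusted p = 0.00113) in wild-type cells. It was the only call among 11 measured adapter and death signalling genes in Tet2-/- cells, a share near the 10.4% of all genes called. In wild-type cells Casp8, the caspase that death receptors activate, was also called at 0.55 (adjusted p = 0.0223), and Fadd, the adapter that recruits it, at 0.39 (adjusted p = 0.0432), which makes 3 of 11 beside 8.47% of all genes. In Tet2-/- cells these differed by 0.40 and 0.04. Of 16 measured NF-κB genes, 2 were higher and 3 lower in Th17 cells in the Tet2-/- genotype, and 2 were higher and 1 lower in wild-type cells, beside 7.14% and 3.29% of all genes in Tet2-/- and 5.3% and 3.17% in wild-type cells. Nfkb2, the precursor of the p52 subunit of the alternative pathway, read 9.41 and 9.14 on Tet2-/- Th17 arrays, against 10.29 and 10.11 on Tet2-/- Th1 arrays, and 9.18 and 9.31 on wild-type Th17 arrays, against 10.00 and 9.96 on wild-type Th1 arrays. No Th17 array reached a Th1 array, and the differences were -0.93 (SE 0.134, adjusted p = 0.000808) and -0.74 (SE 0.134, adjusted p = 0.00482) in Tet2-/- and wild-type cells. The inhibitors Nfkbib and Nfkbie were lower in Tet2-/- Th17 cells (differences of -0.52 and -0.58), and Cyld, a deubiquitinase that restrains the pathway, was higher by 0.72. In wild-type cells, where none of the 3 passed, Nfkbib differed by -0.27, Nfkbie by -0.53 (adjusted p = 0.0565) and Cyld by 0.35. Tab2, an adapter of the kinase TAK1, was higher in both genotypes (0.53 and 0.45 in Tet2-/- and wild-type cells), and Map3k14, the kinase NIK of the alternative pathway, in wild-type cells (0.43), with 0.23 in Tet2-/- cells. Without both extreme Th17 arrays Nfkb2 in Tet2-/- cells and Traf1 in wild-type cells passed and no other adapter or NF-κB gene named here did. Between genotypes, 0 genes of these lists were called in either cell type.

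In the promoter windows of the 10 receptors, matches to 4 motifs on both strands are described. The motif TTCNNNGAA, of the kind that STAT factors bind, stood in 6 of the 12 windows, against 8.3% of all 32841 windows. The motif TGANTCA of AP-1 stood in 3 windows (7.81% of all), the NF-κB motif in 3 (8.46%) and TGTGGT of RUNX factors in 2 (16.8%). Matches are a description of letters and not of sites in use. The STAT matches are shown with the bases around them, with the 9 matching letters in capitals.
Tnfrsf9, chr4:150927853-150927881 (+): caacagctgaTTCCAAGAAacccttcaga
Tnfrsf18, chr4:156026213-156026241 (+): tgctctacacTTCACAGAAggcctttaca
Tnfrsf25, chr4:152116317-152116345 (+): gggcctccacTTCTCAGAAggcatggctg
Tnfrsf1a, chr6:125349473-125349497 (+): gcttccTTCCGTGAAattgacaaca
Tnfrsf1b, chr4:145247033-145247061 (-): agcgcattcaTTCCCGGAAgagatgctgg
Fas, chr19:34290556-34290584 (+): tcaaagcgatTTCTGGGAAgacctgaata
These windows belong to receptors that were lower in Th17 cells (Tnfrsf9, Tnfrsf18), higher (Tnfrsf25, Tnfrsf1a) and not called (Tnfrsf1b, Fas). Tnfrsf4, Tnfrsf8, Tnfrsf14 and Cd27 had no match in their windows. The NF-κB matches lie in the second windows of Tnfrsf9 and Tnfrsf25 and in the window of Tnfrsf8, and the pairs of matches in Tnfrsf9 and in Tnfrsf8 overlap each other.

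By position, 7 of the 10 receptors lie on chromosome 4, 2 on chromosome 6 (Cd27 and Tnfrsf1a) and 1 on chromosome 19 (Fas). Tnfrsf4 and Tnfrsf18, both lower in Tet2-/- Th17 cells, are adjacent. Tnfrsf1b and Tnfrsf8 are adjacent as well, with 0 coding genes between them, and of that pair Tnfrsf8 alone was called. Of the 7 receptors on chromosome 4, Tnfrsf9, Tnfrsf4 and Tnfrsf18 were lower in Tet2-/- Th17 cells, and Tnfrsf8, Tnfrsf25 and Tnfrsf14 were higher.

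For the 3 receptors whose group means ranged widest, the genes with the most similar pattern over the 8 arrays were listed from 415 genes with a range of group means of at least 1 log2 unit. Tnfrsf25 was most like Maf, a transcription factor of Th17 and follicular helper cells, Lpxn and St8sia1 (Pearson r = 0.989, 0.989 and 0.987). Tnfrsf9 was most like Atxn7l1, Plek and Hopx (r = 0.921, 0.917 and 0.911). Tnfrsf14 was most like Id3, an inhibitor of E proteins, Rasa3 and Stim1 (r = 0.939, 0.913 and 0.904). These correlations describe 8 arrays in 4 groups, which share the cell type difference.

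**Figure D5:**
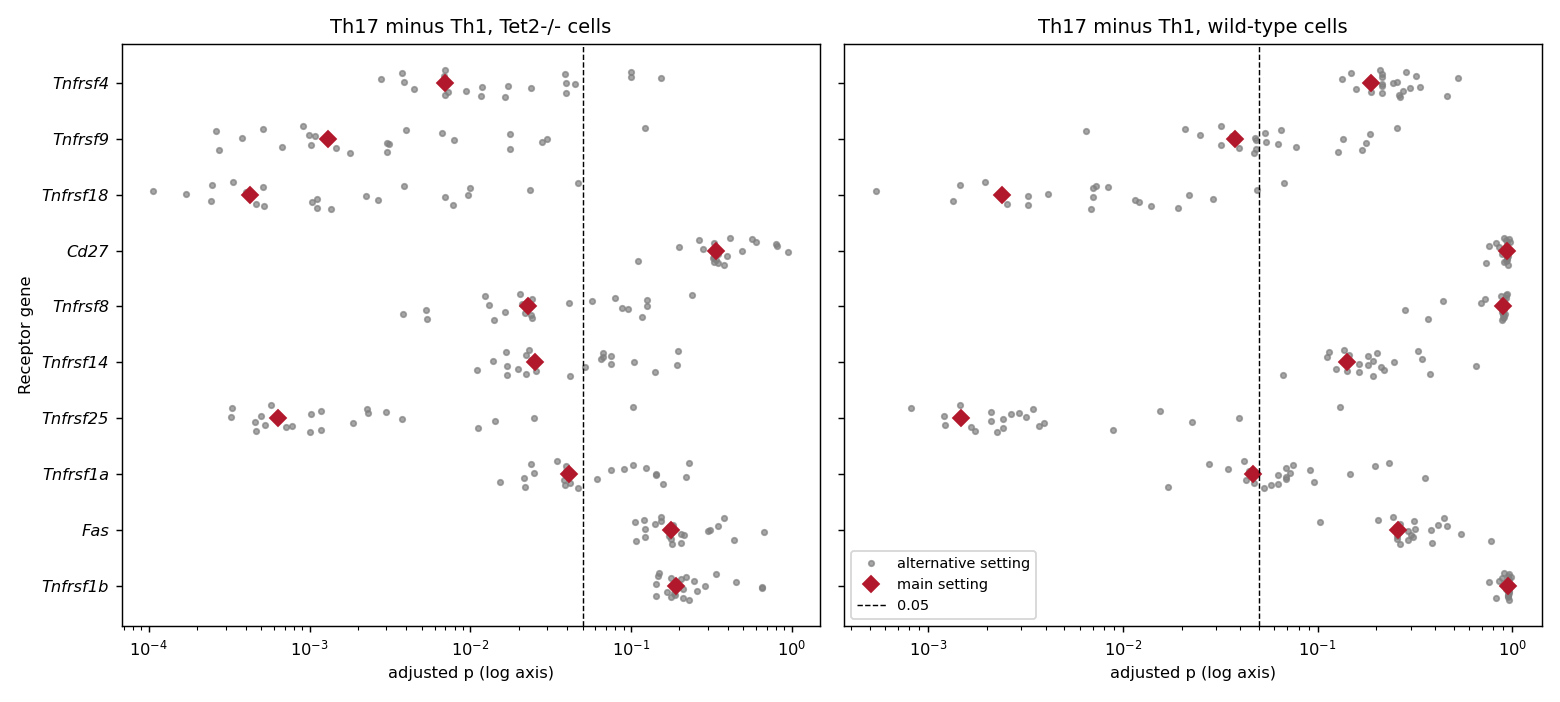
Adjusted p of the Th17 minus Th1 difference for each of the 10 receptors in Tet2-/- and in wild-type cells (log scale, with a line at 0.05). Each point stands for 1 setting, the main fit or an alternative that changed the processing or left out arrays. Tnfrsf18 passed in 22 of 22 alternatives in Tet2-/- cells and in 21 of 22 in wild-type cells, and Tnfrsf1a in 12 and 7.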

How the data were processed

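Total RNA of 8 cultures in 4 groups of 2 was measured on Affymetrix arrays. The authors deposited a log2 value for each probeset on each array, and the submitters' processing notes name RMA and Partek. That the log base is 2 was read from the range of the values, since the base, software versions, filters and genome build are not stated by these sources. The table held 35556 probesets, and 21789 of them carried exactly 1 gene symbol. For 999 genes with more than 1 such probeset the highest mean over the 8 arrays was kept, which left 19938 genes. No gene or array was left out.

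Group means were estimated from the 8 arrays together in R 4.3.3 with limma 3.58.1 (lmFit, contrasts, and eBayes using an intensity trend), with 4 residual and 8.44 prior degrees of freedom. All tests are two-sided, with Benjamini-Hochberg adjustment over the 19938 genes, and calls need an adjusted p-value under 0.05. SE and 95% intervals come from this fit. The labels call replicates biological but name no separate animals, so p-values measure the spread between these samples, which may be technical in part. The number of arrays limits the precision: for the median gene a difference of 0.27 reached an unadjusted p of 0.05.

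Named genes are the 10 receptors in every comparison, their ligands and partners, other receptors, adapters and NF-κB genes (those called and up to 4 with the smallest p of a list), and 3 genes of similar pattern for each of the 3 receptors whose group means ranged widest. These members and lists were chosen with earlier results of these data known. Lists of markers for CD8 T, B, NK, myeloid, erythroid, stromal and naive T cells were measured as well. RefSeq promoter windows were matched by symbol for all 10 receptors, and 1 of the motifs searched in them is not reported here.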

Additional observations from a re-analysis of the deposited data

How the results depend on the processing

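The results were recomputed under 22 alternatives (21 for the difference and for the mean of the genotype effects). Some of these changed the processing or the fit, and others left out arrays. No receptor was called between genotypes under any of them. Between the cell types Tnfrsf18 was called under 22 of 22 in Tet2-/- and 21 of 22 in wild-type cells, Tnfrsf25 under 21 and 21, Tnfrsf9 under 21 and 11, Tnfrsf1a under 12 and 7, and in Tet2-/- cells Tnfrsf4 under 19, Tnfrsf8 under 14 and Tnfrsf14 under 12. Only 2 arrays a group limit every call, and the cause of the changes below was not tested. Receptors called in Tet2-/- cells numbered 1 without moderation of the variance, 4 with all probesets tested, 4 with a Y-linked covariate and 3 without both Th17 arrays of extreme Y-linked level, and in wild-type cells 0 without moderation, and 2 with all probesets, with only the 4 arrays compared, with the Y-linked covariate or with the replicate number within each cell type as a block. Leaving out each array in turn gave 3 to 7 in Tet2-/- and 2 to 3 in wild-type cells.

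Genes called in Tet2-/- cells numbered 166 without moderation, 1064 with all probesets and 975 without both extreme arrays, and 815 to 2383 when an array was left out. In wild-type cells they numbered 87, 622, 808 and 667 to 1560. Between genotypes in Th17 cells 2 genes were called with the block within each cell type, with array weights and with dim genes left out, and 0 to 9 with an array left out. In Th1 cells 0 were called without moderation, with only the 4 arrays compared, with all probesets and without both extreme arrays, and 0 to 2 with an array left out. For the mean effect 2 were called with dim genes left out and 0 to 5 with an array left out, and for the difference of effects 0 to 4.

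Same-numbered samples deviated together with correlations of -0.19 to 0.05, so the numbers share a label and were not taken as pairs. With the replicate number as a block, 7 receptors were called in Tet2-/- and 3 in wild-type cells, where Tnfrsf1a had an adjusted p of 0.0528. Within each cell type as a block, 5 and 2 receptors were called.

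In each comparison, signs turned only for receptors that were not called in that comparison. Without an array, the Th17 minus Th1 difference in wild-type cells ran from -0.0484 to 0.0850 for Tnfrsf1b, -0.35 to 0.25 for Tnfrsf8 and -0.10 to 0.16 for Cd27. Quantile normalization gave -0.0898 for Tnfrsf1b and -0.0767 for Cd27, and without both extreme arrays Tnfrsf8 was 0.25. The genotype difference in Th17 cells ran from -0.27 to 0.15 for Tnfrsf1a, -0.13 to 0.31 for Tnfrsf25 and -0.0670 to 0.25 for Cd27, and Tnfrsf8 was -0.0498 without both extreme arrays. In Th1 cells it ran from -0.0213 to 0.0172 for Tnfrsf4 (0.0035 with the Y-linked covariate), -0.41 to 0.13 for Tnfrsf9, -0.15 to 0.0332 for Tnfrsf1a, -0.21 to 0.0907 for Tnfrsf1b, -0.11 to 0.10 for Tnfrsf25 and -0.0640 to 0.32 for Fas. The difference of effects ran from -0.21 to 0.21 for Tnfrsf1a (0.0079 with quantile normalization, 0.0029 with each array centred on its median), -0.12 to 0.31 for Tnfrsf25 and -0.14 to 0.24 for Fas. The mean effect ran from -0.0244 to 0.0645 for Tnfrsf18, -0.16 to 0.0448 for Tnfrsf1a, -0.0677 to 0.15 for Tnfrsf25 and -0.21 to 0.0889 for Tnfrsf8.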
